A study of Mus musculus with 8 samples.

Results

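The activin and TGF-β genes were followed in cultured mouse astrocytes after knockdown (KD) of GSTM1, a glutathione S-transferase. The set held 10 of the 54146 annotated genes and was taken by gene symbol. It comprised the ligand subunit genes Inhba, Inhbb, Tgfb1, Tgfb2 and Tgfb3, the inhibitor genes Fst and Fstl3, and the receptor genes Tgfbr1, Tgfbr2 and Acvr1b. The set was chosen by a readout of these same libraries, since Inhba was picked for being lower in GSTM1 KD astrocytes in basal cultures and in stimulated cultures. The difference of Inhba between the knockdowns is therefore given as a description with no test, and tests between the knockdowns are given for the other 9 genes.

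Primary cortical astrocytes from C57BL/6 pups received a lentivirus carrying either an shRNA against Gstm1 (GSTM1 KD) or a non-silencing shRNA (control KD). Each knockdown was sequenced in basal cultures and after 6 h with 50 ng/ml of TNF-α, an inflammatory cytokine, with 2 libraries in each of the 4 groups. All 4 groups had passed through viral infection, puromycin selection and removal of CD11b+ cells, so that no group stood for uninfected astrocytes, and how many shRNA sequences against Gstm1 were used is not given in the sources used here. The libraries held 17349676 to 34434633 expected counts. Gstm1 itself was counted 8153 and 9644 times in control KD, against 676 and 626 times for GSTM1 KD in basal cultures, and 4851 and 6492 against 527 and 405 times in stimulated cultures. The targeted transcript was thus lower in each GSTM1 KD library.

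Activins are dimers of inhibin β subunits and, like the TGF-β ligands, they bind a type II receptor that recruits and activates a type I receptor kinase, which phosphorylates the transcription factors SMAD2 and SMAD3. Follistatin and follistatin-like 3 bind activins outside the cell and block them, whereas TGF-β is secreted in a latent complex and has to be released before it can act. Astrocytes are a known source and target of TGF-β in the brain, and activin A is known as a ligand that inflammatory stimuli induce in many cell types.

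The promoter sequence is given for Inhba and Fstl3, which were lower in GSTM1 KD in both states, and for Tgfb2, which was higher in basal cultures, as the stretch of the 250 bases before the RefSeq start (build GRCm38.p6), written 5′ to 3′ on the strand of the gene. Capitals mark matches to TATAAA, the TATA motif, and to GGG and CC separated by 5 bases of any kind, a loose form of the NF-κB motif, each searched on both strands; matches to the other motifs named here are not capitalised. The Inhba stretch lay at chr13:16011601-16011850 on the plus strand, that of Fstl3 at chr10:79777024-79777273 on the plus strand, and that of Tgfb2 at chr1:186705990-186706239 on the minus strand.
Inhba: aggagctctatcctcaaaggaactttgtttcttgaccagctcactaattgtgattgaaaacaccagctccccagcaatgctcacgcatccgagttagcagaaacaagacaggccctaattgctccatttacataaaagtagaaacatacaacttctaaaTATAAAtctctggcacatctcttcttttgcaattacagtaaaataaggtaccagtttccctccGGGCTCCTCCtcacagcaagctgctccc
Fstl3: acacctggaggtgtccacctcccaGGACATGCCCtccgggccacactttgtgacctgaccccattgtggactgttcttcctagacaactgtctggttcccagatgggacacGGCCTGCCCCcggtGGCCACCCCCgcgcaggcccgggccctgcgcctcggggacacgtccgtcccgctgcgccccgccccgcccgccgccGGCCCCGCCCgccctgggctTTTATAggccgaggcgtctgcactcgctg
Tgfb2: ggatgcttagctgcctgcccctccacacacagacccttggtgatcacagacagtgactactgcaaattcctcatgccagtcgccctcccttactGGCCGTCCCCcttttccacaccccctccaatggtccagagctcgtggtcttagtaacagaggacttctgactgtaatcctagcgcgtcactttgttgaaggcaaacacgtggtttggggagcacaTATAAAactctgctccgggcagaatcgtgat
Each of these 3 held a TATA match, starting at base -91 from the start in Inhba, -29 in Fstl3 and -31 in Tgfb2, the match in Fstl3 being on the reverse strand. Over the 8 genes of the set with an entry (none for Tgfb3 and Fst), these 3 were the ones with a TATA match. A TATA match was present in 12.4% of all 32851 promoters of this length. Tgfbr1, which was lower in GSTM1 KD in stimulated cultures, held no TATA match. Neither did Itga5 and Timp1, genes outside the set that were lower in both states. A link of the TATA motif to the differences between the knockdowns was not tested. Loose NF-κB matches, present in 45.8% of all promoters, numbered 1 in Inhba, 4 in Fstl3 and 1 in Tgfb2, and were also in Tgfb1 and Acvr1b. The SMAD box CAGAC, present in 42.2% of promoters, occurred 2 times each in Fstl3 and Tgfb2 and was also in Tgfbr1 and Tgfbr2, but not in the Inhba stretch. The motifs of AP-1 (TGANTCA) and CRE (TGACGTCA), present in 6.75% and 1.55% of promoters, were in none of the stretches searched for these 8 genes. These are matches of letters only, in windows that end at the start site. No SMAD, NF-κB or AP-1 binding was measured.

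In basal cultures, control KD astrocytes expressed both arms of the pathway. In TPM, a read share corrected for transcript length that allows genes to be compared, Fst was the highest of the set at 70.4 ± 6.27 TPM (SD, n = 2) and Inhba followed at 49.3 ± 4.75 TPM. Tgfb3 (39.4 ± 11.1 TPM) and Tgfb1 (35.5 ± 0.757 TPM) overlapped each other between replicates, and Tgfb3 overlapped Inhba. The receptor transcripts lay between 13.1 TPM for Acvr1b and 20.7 TPM for Tgfbr2. Tgfb2 at 11.7 TPM and Inhbb at 10.99 TPM overlapped each other, and Fstl3 was lowest at 7.21 ± 1.23 TPM. In GSTM1 KD astrocytes the order was another, with Tgfb3 first at 94.8 ± 4.78 TPM, Fst second at 49.2 ± 2.48 TPM and Inhba sixth at 19.9 ± 8.15 TPM, where it overlapped Tgfb2 and Tgfbr1. In stimulated cultures Inhba led in control KD with 67.7 ± 0.311 TPM, above Fst, and Tgfb3 led for GSTM1 KD with 106.6 ± 1.84 TPM, Inhba again being sixth at 22.9 ± 1.44 TPM.

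**Figure D1:**
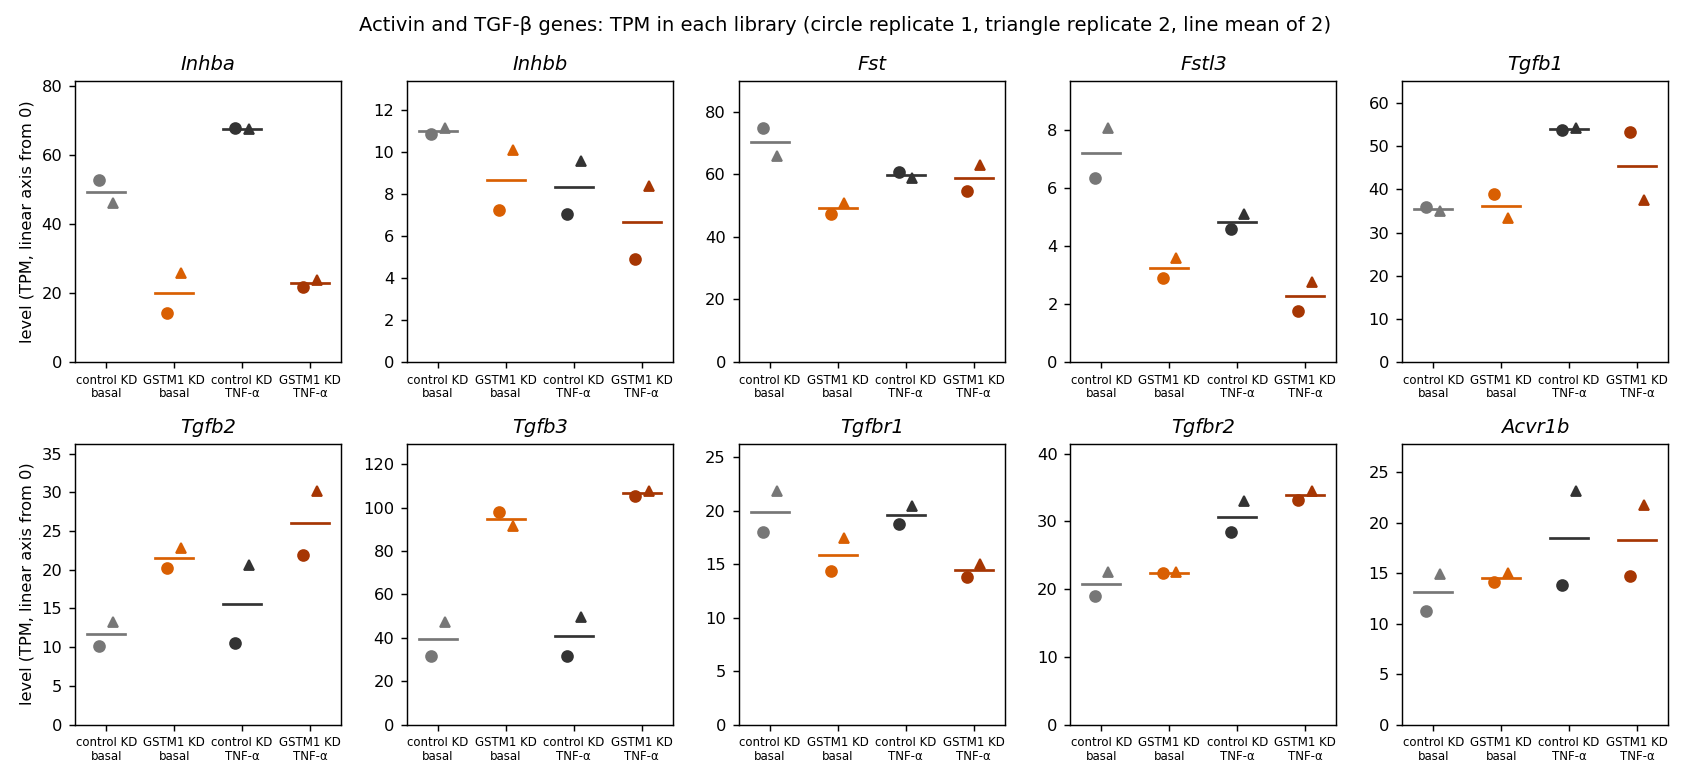
Levels of the 10 genes in TPM (linear axes from 0), each point 1 library (circle replicate 1, triangle replicate 2) and each line the mean of 2, with the 4 groups along the horizontal axis. Inhba lay at 46.0 TPM or more in the control KD libraries and at 25.7 TPM or less in the GSTM1 KD libraries, and Tgfb3 at 49.8 TPM or less in control KD and 91.4 TPM or more in GSTM1 KD.

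Inhba encodes the βA subunit of activin A and lies at chr13:16011851-16031621 (GRCm38). Its levels in CPM, counts scaled to the normalised library size, were 111 and 98.8 in control KD, against 32.7 and 48.6 for GSTM1 KD in basal cultures. In stimulated cultures they were 148 and 144 CPM in control KD, against 46.8 and 56.5 CPM for GSTM1 KD. Every GSTM1 KD library, stimulated or not, lay below every control KD library. The difference came to 2.58-fold lower in basal cultures (log2 fold change -1.37, SE 0.20) and 2.88-fold lower in stimulated cultures (-1.53, SE 0.12). These values chose the gene and stand as a description. Over fits that each omitted a library, the log2 fold change ranged from -1.69 to -1.11 in basal cultures and from -1.66 to -1.38 in stimulated cultures.

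Of the TGF-β ligands, Tgfb3 was higher in GSTM1 KD astrocytes in both states and Tgfb2 in basal cultures, while Tgfb1, the ligand best known from immune regulation, did not pass the test in either state. In basal cultures 3 of the 9 genes tested passed the threshold, Tgfb2 and Tgfb3 as higher and Fstl3 as lower, where 10.2% of the 14899 genes tested did so (edgeR quasi-likelihood test, Benjamini-Hochberg adjusted p below 0.05). In stimulated cultures 3 of 9 passed as well, Tgfb3 as higher and Fstl3 and Tgfbr1 as lower, against 16.2% of 14593 genes. None of these calls held when a GSTM1 KD library was left out: the count of genes of the set past the threshold was then 0 in both states, while over all genes it was 1 or 3 in basal cultures and 0 or 94 in stimulated cultures. Without either control KD library the count was 4 in basal cultures and 3 or 4 in stimulated cultures. In these fits the lone library was assumed to vary like the other group.

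Tgfb3 lies at chr12:86056745-86079041 on the minus strand. It was at 58.3 and 86.6 CPM in control KD, against 173 and 161 CPM for GSTM1 KD in basal cultures, and at 58.5 and 93.9 against 193 and 193 CPM in stimulated cultures. The groups did not overlap in either state. The difference was 2.31-fold in basal cultures (log2 fold change 1.21, SE 0.20, edgeR adjusted p = 0.0275) and 2.49-fold in stimulated cultures (1.32, SE 0.22, adjusted p = 0.0221). Of its exon bases, 12.4% lie under exons of genes on the opposite strand, of which Ttll5 reached 10.6 TPM. A strand setting for the counting is not given in the sources used here.

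Tgfb2, a ligand of the same receptors with a low affinity for the type II receptor alone, lies at chr1:186622792-186705989 on the minus strand, downstream of the promoter printed above. Its levels were 22.0 and 31.9 CPM in control KD against 47.1 and 56.1 CPM in GSTM1 KD in basal cultures, and 23.9 and 41.9 against 53.1 and 72.2 CPM in stimulated cultures. Both GSTM1 KD libraries lay above both control KD libraries in each state. Tgfb2 rose 1.92-fold in basal cultures (0.94, SE 0.21, adjusted p = 0.0464). It did not pass in stimulated cultures, with a log2 fold change of 0.91 (SE 0.29, adjusted p = 0.0834), but passed in 3 of 9 alternatives that kept all libraries (adjusted p from 3.27e-08 to 0.188 over the 9) and without control KD stimulated replicate 2 (adjusted p = 0.00196). In a fit of all 8 libraries the basal difference of Tgfb2 did not pass either (adjusted p = 0.0695).

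The replicates of control KD differed from each other in these ligands. Replicate 1 was below replicate 2 in Tgfb2 and Tgfb3 in both states, and it also held less of Gfap, the intermediate filament gene of astrocytes, with 707 against 2206 TPM in basal cultures. Without control KD replicate 1 the log2 fold change of Tgfb3 was 0.95 in basal cultures and 1.02 in stimulated cultures, and that of Tgfb2 was 0.69 and 0.56. Without control KD replicate 2 the values were 1.51 and 1.70 for Tgfb3 and 1.22 and 1.36 for Tgfb2. The part of the difference between replicates in the result was not tested.

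Tgfb1 (chr7:25687002-25705077) was at 40.5 and 38.7 CPM in control KD, against 42.3 and 36.1 CPM for GSTM1 KD in basal cultures, where the groups overlapped (log2 fold change -0.02, SE 0.13, adjusted p = 0.944). In stimulated cultures the control KD libraries held 60.4 and 62.6 CPM and the GSTM1 KD libraries 58.8 and 41.4 CPM. That difference of -0.32 (SE 0.18) did not pass (adjusted p = 0.251), and it ranged from -0.586 to -0.088 with a library left out. Inhbb, the gene of the βB subunit of activin B at chr1:119415465-119422248, was at 25.6 and 26.0 CPM in control KD against 16.2 and 22.8 CPM in GSTM1 KD in basal cultures. In stimulated cultures the libraries overlapped at 16.7 and 23.1 against 11.5 and 19.1 CPM. Its log2 fold change was -0.41 in both states (SE 0.19 and 0.29, adjusted p = 0.21 and 0.352), so that neither difference passed. Over fits that each omitted a library, this value ranged from -0.678 to -0.179 in basal cultures and from -0.809 to -0.072 in stimulated cultures.

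Of the pair of inhibitors, Fstl3 passed the test in both states and Fst in neither. Fstl3, which encodes a secreted and nuclear relative of follistatin, lies at chr10:79777272-79782630. It was counted 222 and 203 times in control KD, against 65 and 64 times for GSTM1 KD in basal cultures, and 108 and 81 against 38 and 41 times in stimulated cultures. In CPM this gave 6.27 and 7.93 against 2.79 and 3.20, and 4.65 and 4.87 against 1.75 and 2.36. Fstl3 was 2.37-fold lower in basal cultures (log2 fold change -1.24, SE 0.25, adjusted p = 0.0386) and 2.36-fold lower in stimulated cultures (-1.24, SE 0.28, adjusted p = 0.042). The call in stimulated cultures was lost with offsets for effective length (adjusted p = 0.0693). It is the least abundant gene of the set, and 47.3% of its exon bases lie under exons of Prss57 on the opposite strand, a gene that did not exceed 0.33 TPM in any library.

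Fst, the follistatin gene at chr13:114452290-114458951 on the minus strand, was at 73.6 and 62.1 CPM in control KD, against 48.0 and 48.4 CPM for GSTM1 KD in basal cultures. The groups did not overlap, but the difference of -0.49 (SE 0.12) did not pass (adjusted p = 0.0598). In stimulated cultures Fst was at 59.2 and 59.9 CPM in control KD, against 56.6 and 56.6 CPM for GSTM1 KD, a log2 fold change of -0.10 (SE 0.09, adjusted p = 0.477). In basal cultures Fst passed in 5 of the 9 alternative analyses that kept all libraries.

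Of the receptors, Tgfbr1 passed in stimulated cultures and the others in neither state. Tgfbr1, the type I receptor kinase for TGF-β at chr4:47353222-47414931, was at 56.2 and 65.3 CPM in control KD, against 42.3 and 50.8 CPM for GSTM1 KD in basal cultures, which did not pass (-0.38, SE 0.14, adjusted p = 0.13). In stimulated cultures it was 1.41-fold lower, at 55.8 and 64.3 against 41.4 and 45.4 CPM (-0.49, SE 0.12, adjusted p = 0.0438). The groups did not overlap in either state. Tgfbr2, the type II receptor that binds TGF-β (chr9:116084293-116175360, minus strand), was at 51.6 and 60.5 against 59.7 and 59.3 CPM in basal cultures and 76.1 and 93.4 against 90.9 and 91.7 CPM in stimulated cultures. Acvr1b, a type I receptor for activins at chr15:101174067-101213684, was at 27.7 and 36.3 against 33.0 and 35.3 CPM and at 34.1 and 58.2 against 35.9 and 51.6 CPM. Both genes overlapped between the knockdowns in each state. Their log2 fold changes lay between -0.10 and 0.10, with adjusted p-values from 0.642 to 0.834.

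**Figure D2:**
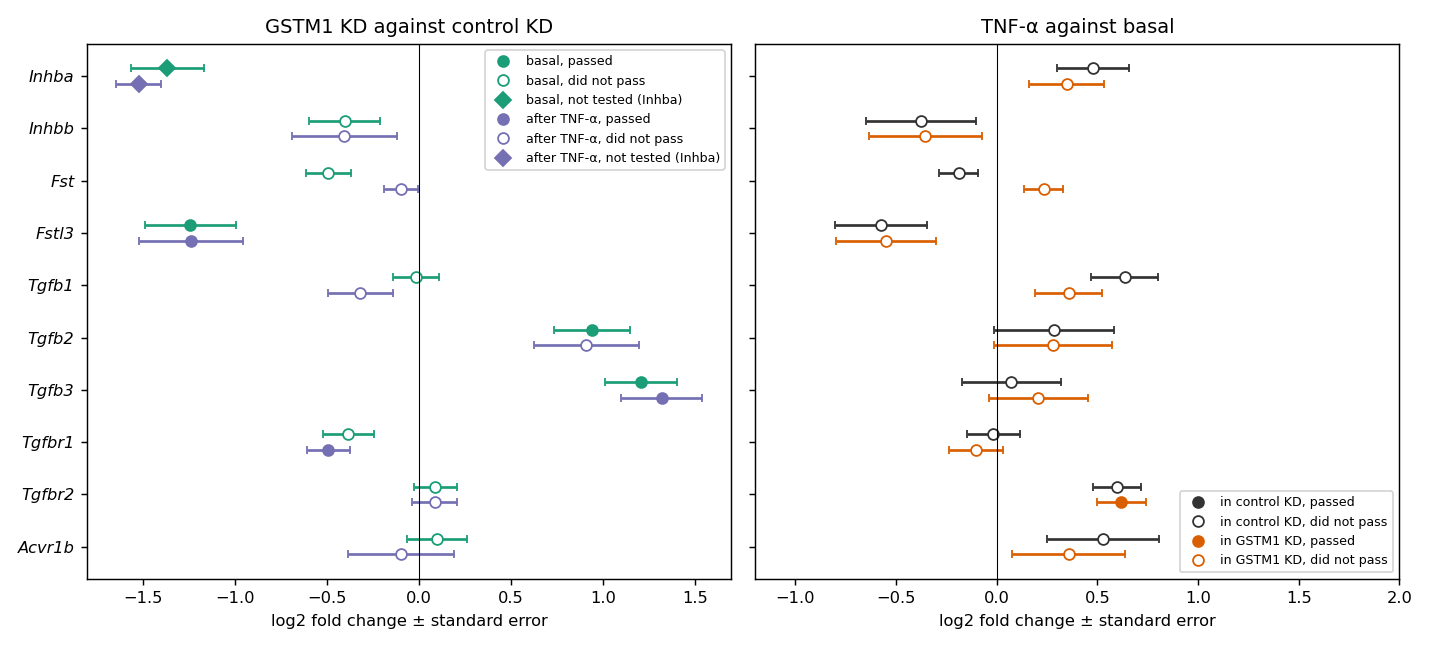
Log2 fold change with its standard error for each gene of the set, on the left for GSTM1 KD against control KD in basal cultures and in stimulated cultures and on the right for TNF-α against basal in each knockdown. Filled circles passed the threshold, open circles did not, and diamonds mark Inhba, which chose the set and was not tested between the knockdowns. Fstl3 lies at -1.24 and Tgfb3 at 1.21 and 1.32 between the knockdowns, and Tgfbr2 at 0.60 and 0.62 in the response to TNF-α.

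The balance of ligands and inhibitors was described from the TPM values of each library, with no test since Inhba enters it. Inhba made up 82.9% and 80.5% of the summed Inhba and Inhbb transcripts in control KD against 66.2% and 71.8% for GSTM1 KD in basal cultures. In stimulated cultures its share was 90.6% and 87.6% in control KD, against 81.6% and 74.1% for GSTM1 KD. Inhba was therefore the main activin subunit transcript in every library, with a smaller share in GSTM1 KD in both states. The ratio of Fst to Inhba was 1.42 and 1.44 in control KD, against 3.35 and 1.99 for GSTM1 KD in basal cultures, and 0.895 and 0.871 against 2.51 and 2.63 in stimulated cultures. In the stimulated state follistatin transcripts thus lay below activin βA transcripts in control KD and above them in GSTM1 KD. With all 4 genes in the ratio (Fst + Fstl3)/(Inhba + Inhbb), the group means were 1.29 and 1.94 in basal cultures and 0.850 and 2.08 in stimulated cultures. Ratios of transcripts do not give ratios of secreted proteins, which were not measured.

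The summed TPM of the TGF-β ligands was 77.7 and 95.5 in control KD, against 157 and 148 for GSTM1 KD in basal cultures. In stimulated cultures it was 95.9 and 125 against 181 and 176. Tgfb3 supplied 40.6% and 49.6% of this sum in control KD against 62.4% and 61.9% for GSTM1 KD in basal cultures, and 32.9% and 39.9% against 58.3% and 61.4% in stimulated cultures. Tgfb1 supplied a mean of 41.5% in control KD against 23.7% in GSTM1 KD before and 49.8% against 25.4% after stimulation, while its own level overlapped in basal cultures. Tgfb2 kept a share of 11.03% to 17.2% in all 8 libraries. In bulk RNA, fewer cells of a type and less RNA per cell cannot be told apart, which holds for every level given here.

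**Figure D3:**
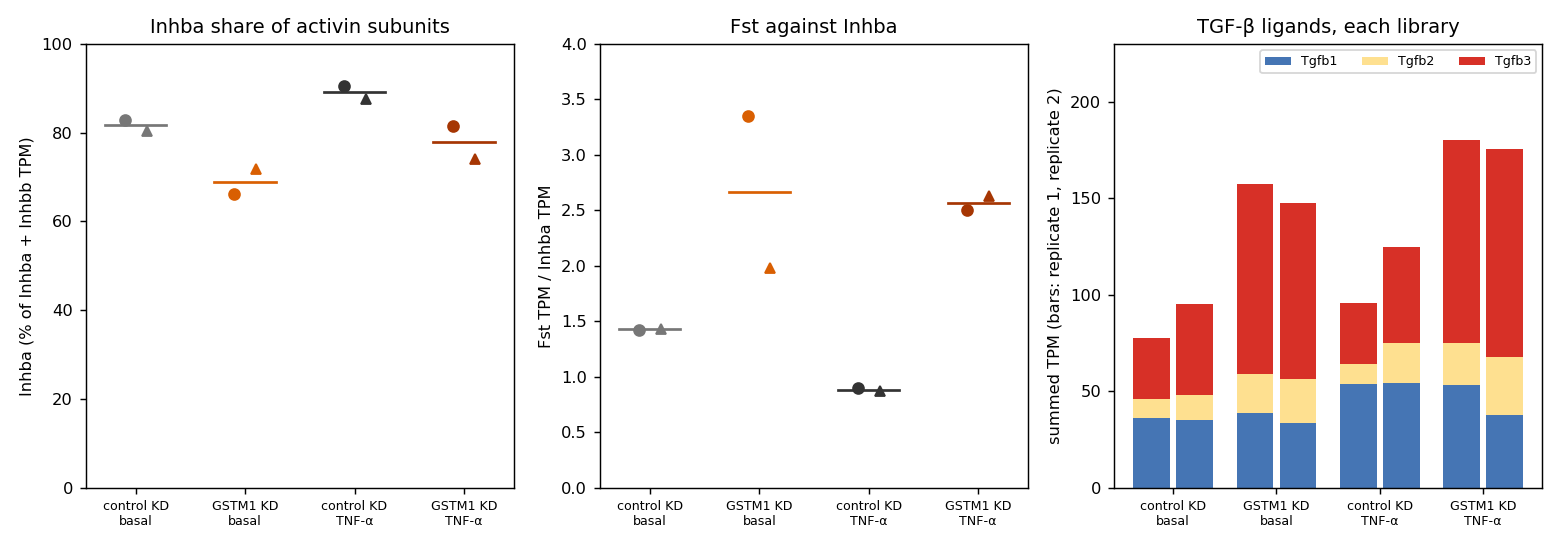
From left to right, the share of Inhba in the summed Inhba and Inhbb TPM (percent, axis 0 to 100), the ratio of Fst to Inhba TPM, and the TPM of Tgfb1, Tgfb2 and Tgfb3 stacked for each library. Points are libraries (circle replicate 1, triangle replicate 2), lines are means of 2, and bars are single libraries in replicate order. The ratio lies at 0.895 or less in control KD in stimulated cultures and at 1.99 or more in GSTM1 KD, and the stacked bars reach 125 TPM at most in control KD and 148 TPM or more in GSTM1 KD.

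The responses of the same genes to TNF-α were compared next. In control KD astrocytes none of the 10 genes passed the threshold, where 2.63% of the 15332 genes tested did. At an unadjusted edgeR p below 0.05 there were 4 of the 10, beside 1920 of all 15332 genes. These 4 were Tgfbr2 (log2 fold change 0.60, SE 0.12, adjusted p = 0.0547), Tgfb1 (0.64, SE 0.17, adjusted p = 0.122), Inhba (0.48, SE 0.18, adjusted p = 0.322) and Fstl3 (-0.58, SE 0.23, adjusted p = 0.347). DESeq2 called 2 of them, Tgfb1 and Tgfbr2, where it called 4.58% of all genes. The edgeR fit without a filter on low counts called Tgfb1, Tgfbr2, Inhba and Acvr1b, against 4.74% of all genes. In GSTM1 KD astrocytes 1 of the 10 genes passed, Tgfbr2, against 2.65% of all genes. Its GSTM1 KD libraries were at 59.7 and 59.3 CPM before and at 90.9 and 91.7 CPM after TNF-α, and its control KD libraries at 51.6 and 60.5 CPM and then at 76.1 and 93.4 CPM. Tgfbr2 rose 1.53-fold there (0.62, SE 0.12, adjusted p = 0.0497), a call at the border of the threshold that was lost when any library of GSTM1 KD was left out and with DESeq2-type size factors (adjusted p = 0.0541). The stimulated libraries of Tgfbr2 lay above the basal ones in both knockdowns.

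The difference between the responses was tested as an interaction across all genes. It passed for 0 of the 9 genes of the set tested and for 0% of the 15332 genes, with 295 genes at an unadjusted p below 0.05 in edgeR and 27 genes passing in DESeq2. The largest in the set was that of Fst, whose response was -0.19 (SE 0.10) in control KD but 0.23 (SE 0.10) for GSTM1 KD, a difference of 0.42 (SE 0.14, unadjusted p = 0.0177, adjusted p = 1). For Inhba, not tested here, the response was 0.48 (SE 0.18) in control KD against 0.35 (SE 0.19) for GSTM1 KD. The other 8 differences in the response lay between -0.28 for Tgfb1 and 0.13 for Tgfb3, with standard errors of 0.17 to 0.42. Both comparisons of the knockdowns and both responses share libraries, so that the values are given side by side only.

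Other genes of the pathway were taken from lists by pathway role, which were chosen with earlier results of these data known. Among them, the readouts of SMAD2 and SMAD3 that passed the test were all lower in GSTM1 KD. Of 23 such genes tested, 8 were lower and 0 higher in basal cultures and likewise in stimulated cultures, where 10.2% and 16.2% of all genes tested were called in either direction. The median log2 fold change was -0.52 and -0.46, beside -0.0020 and -0.011 over all genes tested. The genes that fell in both states were Cyr61, Col1a2, Acta2, Tagln, Timp1, Loxl2 and Itga5, while Junb passed in basal cultures and Ier3 in stimulated cultures, for neither of which the interaction passed. Without either GSTM1 KD library the count in basal cultures was 0, and in stimulated cultures it was 0 or 1. The list overlaps what other pathways drive: Cyr61, Acta2 and Tagln are also known targets of serum response factor, and Junb and Ier3 of NF-κB and growth factor signals.

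Itga5, the α5 subunit of the fibronectin receptor, was at 354 and 412 CPM in control KD, against 95.9 and 140 CPM for GSTM1 KD in basal cultures, and at 558 and 682 against 163 and 196 CPM in stimulated cultures. It was 3.25-fold lower in basal cultures (-1.70, SE 0.21, adjusted p = 0.019) and 3.52-fold lower in stimulated cultures (-1.81, SE 0.16, adjusted p = 0.00981). Of the feedback genes of the pathway, Smad7 had log2 fold changes of -0.30 and -0.35 in basal and stimulated cultures (adjusted p = 0.154 and 0.0517), Skil 0.29 and 0.04 (0.141 and 0.806) and Pmepa1 0.22 and 0.24 (0.226 and 0.225), so that none passed in either state. In response to TNF-α, Junb and Cdkn2b rose in both knockdowns, Junb by 1.94 in control KD against 2.37 for GSTM1 KD and Cdkn2b by 1.33 and 1.15 on the log2 scale. These were 2 of 23 readouts, where 2.63% and 2.65% of all genes responded in control KD and GSTM1 KD. In control KD 1 readout passed in the fit of its 4 libraries alone and 1 or 2 with a library left out, and in GSTM1 KD 1 passed whichever library was left out. The counts rose to 5 and 3 with DESeq2 and to 6 in each knockdown without a filter.

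**Figure D4:**
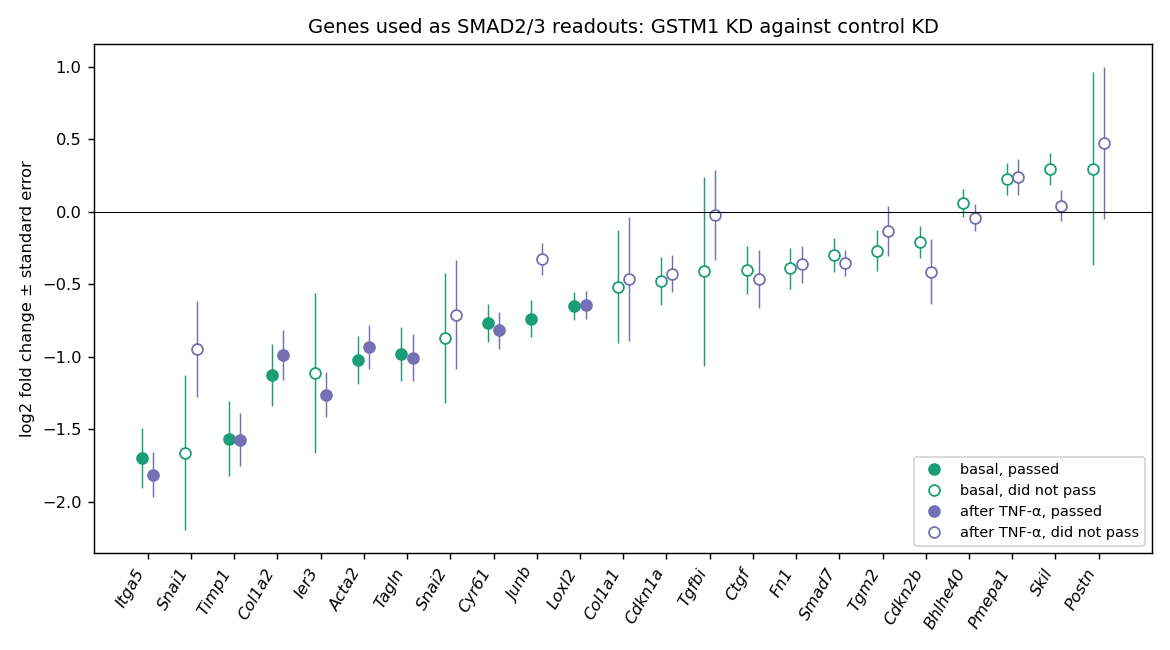
Log2 fold change with its standard error for the 23 genes used as SMAD2/3 readouts, GSTM1 KD against control KD, ordered by the basal value along the horizontal axis. Filled points passed the threshold and open points did not, in green in basal cultures and in purple in stimulated cultures. In each state 8 filled points lie below 0 and none above it, with Itga5 at -1.70 and -1.81.

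In the further lists, genes passed in both directions. Their counts between the knockdowns stand beside the 10.2% of all genes called in basal cultures and the 16.2% called in stimulated cultures, and several are close to these shares. Of 9 other ligands tested, 2 were higher (Gdf11 and Bmp3) and 1 lower (Gdf15) in basal cultures, and 1 higher (Gdf11) and 1 lower (Gdf15) in stimulated cultures. Gdf11, a ligand that signals through activin receptors, rose 3.39-fold from 17.9 and 26.1 to 67.5 and 80.9 CPM (1.76, SE 0.21, adjusted p = 0.0178) and 3.44-fold in stimulated cultures (1.78, SE 0.20, adjusted p = 0.0121). Gdf15, a stress-induced ligand that signals through GFRAL, fell from 20.1 and 16.5 to 5.45 and 5.56 CPM (-1.74, SE 0.19, adjusted p = 0.016), and in stimulated cultures its log2 fold change was -1.97 (SE 0.17, adjusted p = 0.00981). Bmp3 passed narrowly in basal cultures (1.45, SE 0.33, adjusted p = 0.0499) and lay between 1.22 and 4.51 CPM there. Bmp2, a ligand of the SMAD1/5 arm, rose with TNF-α in control KD from 3.08 and 1.45 to 12.7 and 9.74 CPM (2.29, SE 0.38, adjusted p = 0.0257) and in GSTM1 KD from 1.37 and 0.801 to 7.34 and 7.93 CPM (2.79, SE 0.42, adjusted p = 0.0162).

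Of 10 other receptors tested between the knockdowns, Acvr2a, a type II receptor for activins, was the only one past the threshold in each state, a share near or below that of all genes, rising from 36.5 and 41.2 to 55.0 and 60.3 CPM in basal cultures (0.57, SE 0.12, adjusted p = 0.0425) with 0.58 (SE 0.13, adjusted p = 0.0369) in stimulated cultures. With effective-length offsets, no receptor of this list was higher and 1 was lower in basal cultures. Of 10 further extracellular inhibitors, Grem1, a BMP antagonist, fell in both states (-2.49, SE 0.37 and -1.74, SE 0.42) at levels of 4.87 CPM or less, and Bgn fell in stimulated cultures (-0.77, SE 0.18). The 1 lower inhibitor in basal cultures became 3 with DESeq2 or with all 8 libraries in the fit, 4 without a filter, and 3 without either control KD library. Noggin (Nog), another BMP antagonist, fell with TNF-α by 0.87 in control KD and by 0.71 under GSTM1 KD on the log2 scale. Among the genes of latent TGF-β storage and release, 2 were higher and 2 lower in each state, of 16 tested in basal cultures and 17 in stimulated cultures. Ltbp1, which tethers latent TGF-β to the matrix, and Furin, the protease that cleaves the TGF-β precursor, were higher (0.59 and 0.57 in basal cultures, 0.63 and 0.58 in stimulated cultures). In basal cultures no gene of this list passed as higher with DESeq2-type size factors or with effective-length offsets. Ltbp2, a family member that does not bind latent TGF-β, and the integrin gene Itgb3 were lower (-0.58 and -1.84, then -0.75 and -1.64). Of 17 SMAD pathway genes none passed in basal cultures and 2, Smad5 and Smurf1, were lower in stimulated cultures (-0.45 each). A fit with a term for the replicate number called 4 of them as higher and 4 as lower in basal cultures. In stimulated cultures that fit called 1 as higher and 5 as lower. DESeq2 called 2 as lower in basal cultures, and 3 as lower and 1 as higher in stimulated cultures, and the other quasi-likelihood method of edgeR called 4 as lower in stimulated cultures. With TNF-α, Smad3 rose in GSTM1 KD (0.99, SE 0.19, adjusted p = 0.0426), beside 0.90 (SE 0.19, adjusted p = 0.0564) in control KD. In control KD, TNF-α also raised Fstl1 (0.71, SE 0.11), Smurf1 (0.41, SE 0.08) and Mmp9 (3.13, SE 0.46), the latter at no more than 1.32 CPM. In the response of control KD, no ligand passed in 3 of the 4 fits that left out a library (all but that without basal replicate 1), and no inhibitor, latency or SMAD gene passed as higher in 3 of 4 (all but that without stimulated replicate 1). In the fit of the 4 libraries of control KD alone none of these lists held a call, and that of Nog was also lost without stimulated replicate 2. In the response of GSTM1 KD, the calls of Bmp2, Nog and Smad3 were lost in each of the 4 fits that left out a library. When a GSTM1 KD library was left out, no gene of these further lists passed between the knockdowns in basal cultures, and in stimulated cultures at most 1 of the ligands passed.

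Across the 8 libraries, the genes whose level ran most like that of Inhba among 14703 genes were Ereg (Pearson r = 0.999 of log2 CPM), Adam19 (0.998), Zfp251 (0.992), Dcaf10 (0.99) and Zkscan1 (0.988). Ereg, the gene of the growth factor epiregulin, had group means of 16.2 CPM in control KD against 5.03 CPM in GSTM1 KD in basal cultures, and of 25.3 against 6.54 CPM in stimulated ones. The genes least like it were Ccnd3 (-0.988), Tbc1d8b (-0.987) and Celf2 (-0.985). Within the set, r was 0.851 for Tgfbr1, 0.742 for Fstl3 and 0.727 for Fst, and it was -0.877 for Tgfb3 and -0.708 for Tgfb2. The libraries share the same 4 groups, so these values describe the difference between the knockdowns again and carry no test.

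Markers of other cells differed between the groups as well. Of the 10 astrocyte markers 9 were detected in each group, with a summed level of 1580 to 3790 TPM in control KD and 3650 to 5720 TPM in GSTM1 KD in basal cultures, and 1580 to 3640 against 3500 to 5420 TPM in stimulated cultures. Gfap was the largest single part of this sum, with a mean of 1456 against 3259 TPM in basal cultures. The other markers lay on both sides: the basal log2 fold change was 1.05 for Aldh1l1, 1.11 for Aldoc, 0.67 for Slc1a2 and 0.36 for Gja1, beside -0.08 for Aqp4, 0.01 for Slc1a3 and -0.50 for Sox9. The median of the 9 tested was 0.36 in basal and 0.07 in stimulated cultures. No astrocyte marker passed as higher, and S100b was lower in GSTM1 KD in basal cultures (-1.44, SE 0.23, adjusted p = 0.0269) and in stimulated cultures (-1.71, SE 0.38, adjusted p = 0.0387). The 9 oligodendrocyte lineage markers summed to 533 to 596 TPM in control KD and 423 to 441 TPM in GSTM1 KD in basal cultures, and to 448 to 479 against 340 to 352 TPM in stimulated cultures, with 6 or 7 detected in each group and Mog or Mag at 0. Of the 6 tested, Olig2 was lower in both states (-0.85, SE 0.13, adjusted p = 0.0251, and -1.14, SE 0.10, adjusted p = 0.0101) and Olig1 in stimulated cultures (-0.44, SE 0.11, adjusted p = 0.0497), with medians of -0.59 and -0.47. The 9 fibroblast markers summed to 44.1 to 76.6 against 52.0 to 56.7 TPM in basal cultures and to 29.7 to 55.8 against 30.3 to 42.1 TPM in stimulated cultures, overlapping in both states, with 6 or 7 detected, Slc6a13 at 0 throughout and Dpt at 0 in control KD. The median log2 fold change of the 6 fibroblast markers tested was -0.94 in basal cultures, where none passed, and -0.81 in stimulated cultures, where Foxc1 and Foxd1 were lower and Pdgfrb higher. The 9 microglial markers summed to 3.04 to 7.73 against 1.65 to 2.57 TPM in basal cultures, lower in GSTM1 KD without overlap, and to 2.16 to 6.95 against 2.19 to 4.49 TPM in stimulated cultures. These sums rest on few reads. C1qa, the highest of these markers in TPM in basal cultures, was counted 15 to 78 times there in control KD and 4 to 13 times in GSTM1 KD. The 7 endothelial markers were lower in GSTM1 KD without overlap in both states, at 5.75 to 6.34 against 3.18 to 4.07 TPM and at 6.86 to 8.27 against 4.10 to 5.40 TPM. Of each of these lists 3 genes were tested and none passed, with basal medians of -0.94 and -0.91 and stimulated ones of -0.73 and -0.76. Of the microglial and endothelial markers, 5 to 8 and 4 or 5 were detected, with Cldn5 at 0 in every group, Aif1 at 0 in GSTM1 KD, and P2ry12 and Emcn at 0 in some groups. The 8 neuronal markers, 6 or 7 of them detected and Snap25 at 0 in GSTM1 KD, summed to 282 to 298 TPM in control KD and 305 to 374 TPM in GSTM1 KD, and the 8 ependymal and choroid plexus markers, 4 to 6 of them detected and Tmem212 or Kcnj13 at 0 in some groups, to 79.2 to 124 against 113 to 125 TPM in basal cultures and to 69.1 to 81.7 against 102 to 111 TPM in stimulated cultures. Of the 4 ependymal and choroid plexus markers tested, Folr1 was higher in both states and Pifo in stimulated cultures. The part of these shifts in the levels of the ligands, receptors and SMAD2/3 readouts was not tested.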

How the data were processed

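Primary mouse cortical astrocytes carrying control or Gstm1 shRNA, unstimulated or stimulated with TNF-α, were profiled by paired-end RNA-seq in 8 libraries. The authors aligned reads with STAR (2.5.4b) to GRCm38 and quantified genes with RSEM (1.3.0). The deposited files give for each library the expected count, the TPM and the effective length (other) per gene. A deposited expected count is an estimate in which reads shared by similar genes are divided, so these were rounded to whole numbers. TPM as deposited were used to compare levels between genes, for their ratios and for sums of markers, and the authors' effective length only for an alternative.

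The 10 genes and all gene lists were chosen with earlier results of these data known. Counts were tested with edgeR (4.0.16; TMM, filterByExpr, quasi-likelihood F test, Benjamini-Hochberg over all genes, threshold 0.05), for the knockdowns on the 4 libraries of a state and for the responses and their difference on all 8. Each SE is the log2 fold change over the square root of F. An exact test of 2 against 2 cannot go below p = 0.333, so p-values come from fits across all genes. TMM factors were 0.9585 to 1.033, a count of 3 corresponded to 0.0848 to 0.18 CPM, and the biological coefficient of variation was 15.8% in basal cultures and 14.5% in stimulated cultures. The study describes the 2 libraries of a group as biological replicates, and their count variance was 13.8 to 55.4 times that of sampling.

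All 10 genes passed the filter in every fit. From each other list, up to 4 genes past the threshold with the smallest p were to be named, otherwise the 2 of highest TPM, and for likeness to Inhba the 5 highest and 3 lowest Pearson r among genes of at least 10 mean counts. 1 gene of the SMAD2/3 readout list is not reported here and was left out of its counts. Genes named beyond that rule were chosen after their values were seen. Alternatives were DESeq2 (1.42.0), another quasi-likelihood method, other scalings, other filters, length offsets, a replicate block, another set of libraries, and each library left out. The scripts were tested on simulated counts. Exon overlaps came from GENCODE and promoters from RefSeq, both on GRCm38, with 8 of the 10 genes matched.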

Additional observations from a re-analysis of the deposited data

Results flagged for a closer look

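Among the 10 genes of the set, Fst was the 1 that moved in opposite directions in the knockdowns without overlap. How many of all genes do so was not counted. With 2 libraries in a group, such a pattern can also arise by chance. In control KD it was at 73.6 and 62.1 CPM in basal cultures and at 59.2 and 59.9 CPM in stimulated cultures. In GSTM1 KD it was at 48.0 and 48.4 CPM and then at 56.6 and 56.6 CPM. Both stimulated libraries thus lay below the basal ones in control KD and above them in GSTM1 KD. The difference of the responses was 0.42 on the log2 scale (SE 0.14, unadjusted p = 0.0177, adjusted p = 1 in edgeR over all genes), so it failed the correction. It ranged from 0.29 without control KD basal replicate 1 to 0.53 without control KD basal replicate 2, and its adjusted p was 1 in every alternative.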

How the results depend on the processing

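Of 440 values under alternatives that kept all libraries, 412 kept their direction and their side of the threshold, 21 newly passed it, 3 no longer did and 4 changed sign. Of 240 values with a library left out, 36 changed sign, and 4 values of Inhba moved by more than the SE of their main fit. The count in basal cultures, 3, became 5 without a filter and ranged from 0 to 4 with a library left out. The count in stimulated cultures, 3, ranged from 0 to 4. The count for the response in control KD, 0, became 2 with DESeq2, 1 with library size only, 4 without a filter, 1 at 10 counts or more and 1 with length offsets, and 0 to 1 with a library left out. The count for the response in GSTM1 KD, 1, became 0 with DESeq2-type size factors and 0 whenever a library was left out. Over all genes, the knockdowns differed in 1524 basal and 2360 stimulated genes, and these counts became 3957 and 4540 without a filter, 1 and 3 or 0 and 94 without a GSTM1 KD library, and 2185 and 5256 or 2703 and 5028 without a control KD library. DESeq2 called 2492 basal genes and the fit of all 8 libraries 2762. The responses, 403 genes in control KD and 406 in GSTM1 KD, became 742 and 630 with DESeq2, 1255 and 1050 without a filter, 72 and 691 in fits of only the 4 libraries compared, and 180 to 313 and 74 to 255 with a library left out. The difference of the responses, 0 genes, became 27 with DESeq2, 134 without a filter and 2 without GSTM1 KD basal replicate 2. The 8 lower SMAD2/3 readouts became 14 in each state without a filter. The cause of these changes was not tested.

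With the replicate block, the count was 5 in basal cultures (Fst and Tgfbr1 added), 4 in stimulated cultures, 2 for the response in control KD (Tgfb1 and Tgfbr2) and 1 in GSTM1 KD, and over all genes 4712 and 4302 genes differed between the knockdowns and 988 and 808 responded. Of the SMAD2/3 readouts, 15 were then lower and 1 higher in basal cultures and 12 lower in stimulated cultures, and of the 17 SMAD pathway genes 4 were higher and 4 lower in basal cultures and 1 higher and 5 lower in stimulated cultures. With TNF-α 7 readouts then rose in control KD, against 6 for GSTM1 KD, and 4 extracellular inhibitors were lower in basal cultures. Equal replicate numbers deviated together in the 6 pairs of groups (r from 0.194 to 0.627), but with 2 libraries a group and no source that says what a number marks, the numbers were not taken as a pairing.

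Changes of sign without leaving out a library were small: Tgfb1 in basal cultures 0.008 with library size only, and for the difference of the responses Inhbb -0.001 and Tgfbr2 -0.003 at 10 counts or more and Tgfb2 0.003 without a filter. With a library left out, the basal log2 fold change ranged from -0.135 to 0.085 for Tgfb1, -0.025 to 0.197 for Tgfbr2 and -0.091 to 0.293 for Acvr1b. In stimulated cultures it ranged from -0.052 to 0.24 for Tgfbr2 and -0.435 to 0.331 for Acvr1b. The response in control KD ranged from -0.153 to 0.637 for Tgfb2, -0.291 to 0.392 for Tgfb3 and -0.121 to 0.103 for Tgfbr1, and in GSTM1 KD from -0.224 to 0.036 for Tgfbr1. The difference of the responses ranged from -0.39 to 0.172 for Inhba, -0.388 to 0.344 for Inhbb, -0.356 to 0.43 for Tgfb2, -0.186 to 0.498 for Tgfb3, -0.198 to 0.226 for Fstl3, -0.21 to 0.045 for Tgfbr1, -0.115 to 0.159 for Tgfbr2 and -0.504 to 0.244 for Acvr1b.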
